A study of Mus musculus with 8 samples.

Results

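Chaperones and their partners were followed in the postnatal mouse heart as 39 genes, chosen by symbol from the deposited table, which holds 22518 genes. Of these, 26 belong to the endoplasmic reticulum (ER), 11 are heat shock genes of the cytosol and nucleus and 2 encode the chaperonin of the mitochondrial matrix. All 39 were in the table, and 37 had a mean of at least 1 FPKM (fragments per kilobase of transcript, scaled to sequencing depth) over the 8 libraries and were tested. Ero1lb and Derl3 were below this level.

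Proteins of the secretory pathway fold inside the ER, where the chaperones BiP and GRP94, the lectins calnexin and calreticulin and the protein disulfide isomerases bind or oxidise them, and chains that fail to fold are returned to the cytosol and degraded. When unfolded protein accumulates, the sensors IRE1, ATF6 and PERK start the unfolded protein response (UPR), which raises transcription of ER chaperones through ATF6 and spliced XBP1. Cytosolic heat shock genes answer to another factor, HSF1, and small heat shock proteins such as alpha-B-crystallin are abundant in heart muscle at rest, where they protect the sarcomere.

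The libraries came from whole hearts of C57BL/6 mice at postnatal day 12, with 4 from wild type littermates and 4 from PHD2/3 endothelial knockout mice. In the knockout, endothelial cells are to lack PHD2 and PHD3, enzymes that use oxygen to mark the factor HIF for degradation, and the comparison asks how expression in the heart differs when both are lost there. The driver of the endothelial deletion is not given in the sources used here, and no label ties a library to an animal of its own. The p-values therefore cover only the spread between these libraries, which may be technical. In a bulk sample, fewer cells of a type and less RNA per cell cannot be told apart.

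Sequencing depth is unknown because the values were quantile normalised. Egln1, the gene for PHD2, was at 45.2 to 57.9 FPKM in the wild type against 52.6 to 63.5 FPKM in the knockout hearts (limma adjusted p = 0.442). Egln3, the gene for PHD3, was at 18.0 to 38.7 and 32.6 to 52.8 FPKM (adjusted p = 0.132), so whole-heart values do not check the genotype. Cardiomyocyte markers summed to 41819 to 47723 FPKM in wild type against 34629 to 43442 FPKM in knockout hearts. Of these 10 markers, 5 had a higher and 5 a lower mean log2 level in knockout hearts. Airway and lung markers summed to 1300.03 FPKM in wild type replicate 4 and to at most 0.529 FPKM in the other libraries. By its library number, knockout replicate 4 lies outside the range of the other libraries, which are close together. The Y-linked gene Ddx3y was at 0.104 FPKM in knockout replicate 1 and at 16.8 to 22.2 FPKM in the other knockout libraries, and wild type replicates 2 and 3 were at 0.138 and 1.10 FPKM.

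Promoter sequence was searched for known response elements, in members chosen with earlier results of these data known. RefSeq promoters on GRCm38.p6, from 250 bases before to 50 bases after the start, were found for 31 of the 39 genes (4 of them, Derl2, Dnajb1, Hspd1 and Hsph1, with 2 starts), and not for Atf6, Cryab, Derl1, Hsp90aa1, Hsp90ab1, Hspa8, Hyou1 and Manf. The ER stress element, CCAAT and CCACG with 9 bases of any kind between them, searched on both strands, was present in 10 of 22 ER genes, in 0 of 7 cytosolic genes and in 0.119% of all 32851 promoters. Its second form, ATTGG and CCACG with 1 base between them, was present in Herpud1 and Dnajb11 and in 0.0365% of all promoters. The heat shock element, as 3 alternating blocks of GAA and TTC with 2 bases between blocks, was present in Hsph1 among the 7 cytosolic genes, in 0 of 22 ER genes, in the promoters of Hspd1 and Hspe1, and in 0.603% of all promoters. The UPR element TGACGTGG was in 0 of 22 ER genes and 0.676% of all promoters. The core of the hypoxia response element, ACGTG or GCGTG, was in 17 of 22 ER genes, in 3 of 7 cytosolic genes and in 43.8% of all promoters. Of 32 such core matches in ER genes, counted on both strands so that CACGTG counts 2 times, 6 overlapped an ER stress element. These are matches of letters and not measured binding. These stretches are shown because they carry the shared elements of genes whose values follow; they run 5′ to 3′ along the gene, with ER stress elements of either form in capitals and, for Hspe1, the overlapping heat shock elements.
Hspa5, chr2:34772020-34772048, plus strand: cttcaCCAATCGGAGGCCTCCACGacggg
Hsp90b1, chr10:86705510-86705691, minus strand: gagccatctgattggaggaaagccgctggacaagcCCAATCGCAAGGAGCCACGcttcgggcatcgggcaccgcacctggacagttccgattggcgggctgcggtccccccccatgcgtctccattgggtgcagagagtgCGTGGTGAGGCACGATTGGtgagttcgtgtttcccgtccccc
Calr, chr8:84847040-84847128, minus strand: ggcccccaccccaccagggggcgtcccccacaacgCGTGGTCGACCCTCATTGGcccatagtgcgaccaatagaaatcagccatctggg
Canx, chr11:50325765-50325853, minus strand: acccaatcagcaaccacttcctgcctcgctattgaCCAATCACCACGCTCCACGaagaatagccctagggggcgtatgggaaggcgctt
Pdia6, chr12:17266456-17266544, plus strand: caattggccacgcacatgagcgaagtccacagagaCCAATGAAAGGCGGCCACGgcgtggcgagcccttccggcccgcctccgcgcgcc
Creld2, chr15:88819485-88819573, plus strand: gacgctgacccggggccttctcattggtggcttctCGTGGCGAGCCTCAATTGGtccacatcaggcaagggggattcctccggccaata
Dnajc3, chr14:118937792-118937880, plus strand: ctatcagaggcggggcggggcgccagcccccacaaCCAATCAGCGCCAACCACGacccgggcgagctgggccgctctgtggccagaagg
Syvn1, chr19:6046497-6046575, plus strand: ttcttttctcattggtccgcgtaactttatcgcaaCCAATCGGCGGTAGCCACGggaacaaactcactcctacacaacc
Herpud1, chr8:94386342-94386422, plus strand: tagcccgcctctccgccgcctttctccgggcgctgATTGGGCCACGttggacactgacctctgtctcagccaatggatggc
Hspe1, chr1:55088054-55088081, plus strand: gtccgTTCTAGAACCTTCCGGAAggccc
The Hspe1 elements lie before the start of Hspe1. The same letters lie inside Hspd1, on the opposite strand, as GENCODE annotates it, and before the gene only from the second of 2 RefSeq starts of Hspd1. The stretches of Hspa5 and Hspe1 lie within an exon annotated by GENCODE and are trimmed to the element and its nearest bases.

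No gene of the member list passed the test between knockout and wild type hearts. In the limma fit over all 11390 tested genes, 0 of 37 members reached an adjusted p under 0.05 in either direction, where 12.2% of all tested genes did (6.15% raised and 6.01% lowered). At an unadjusted p under 0.05 there were 5 of 37 members, namely P4hb, Atf6, Sel1l, Derl1 and Hspa8, against 29.6% of all tested genes. The 4 knockout and 4 wild type values did not overlap in 2 of the 37, against 20.7% of all tested genes. All knockout values were above in Hspa8 (10.3% of all tested genes) and below in Derl1 (10.4%). The median log2 change, knockout minus wild type on log2(FPKM + 1), was -0.07 over the 24 tested ER genes, 0.11 over the 11 cytosolic genes and -0.01 over all tested genes. The 95% interval of the change lay within 1.5-fold in both directions for 28 of 37 members and for 74.3% of all tested genes. For the other 9 (Calr, Pdia4, Pdia6, Sdf2l1, Manf, Creld2, Atf6, Hspa1a and Hspa1b) the interval reached past 1.5-fold in 1 direction. A missed threshold does not show that the levels are alike.

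**Figure D1:**
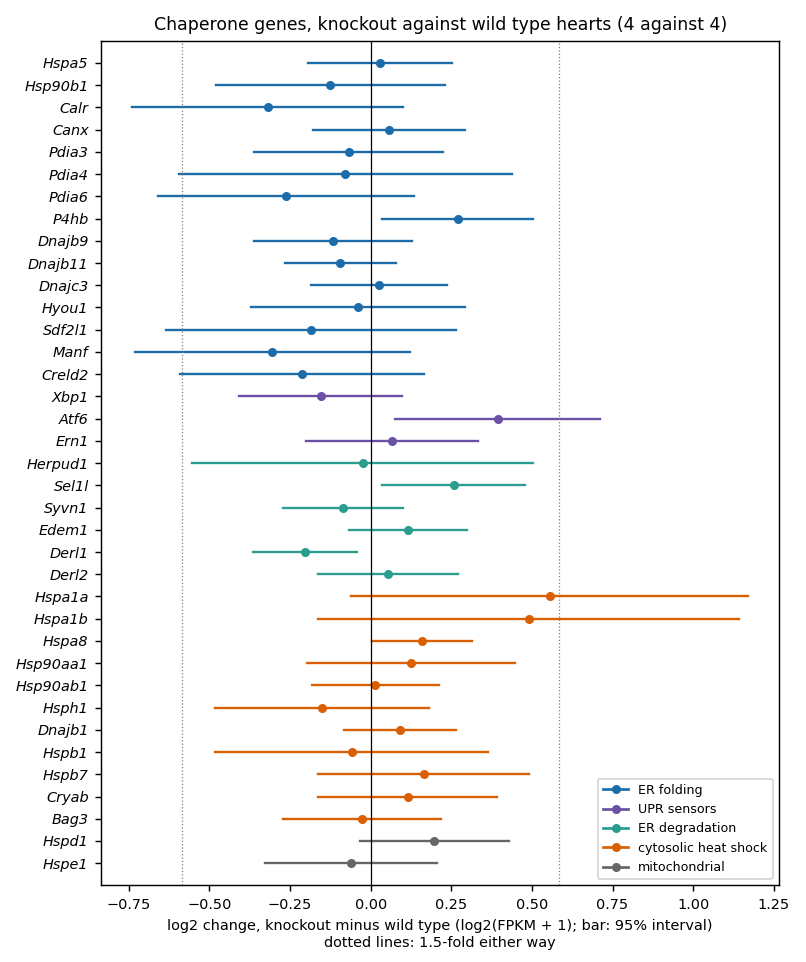
Log2 change of each of the 37 tested chaperone genes, knockout minus wild type on log2(FPKM + 1), with its 95% interval, coloured by role; dotted lines mark 1.5-fold. Changes ran from -0.32 for Calr to 0.55 for Hspa1a, and 0 of 37 passed the adjusted threshold.

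The lumenal HSP70 and HSP90 did not pass the test. Hspa5 encodes BiP, which also holds the UPR sensors inactive (chromosome 2, 34771970 to 34777547 in mm10). It was at 189, 170.0, 192 and 201 FPKM across wild type libraries, given here and later in the order of replicates 1 to 4, and 185, 181, 230.5 and 175 FPKM in the knockout libraries. The groups overlapped throughout, and the log2 change was 0.03 ± 0.10 (SE; 95% interval -0.19 to 0.25, limma adjusted p = 0.876). Hsp90b1, which encodes GRP94, was at 109, 109, 118 and 126 FPKM in wild type against 118, 110.3, 131 and 73.3 FPKM in knockout hearts (limma adjusted p = 0.638). Knockout replicate 4 was the lowest library for this gene, and knockout replicate 3 the highest. Hyou1, the nucleotide exchange factor of BiP, was at 8.42 ± 0.537 FPKM in wild type against 8.34 ± 2.05 FPKM in knockout hearts (mean ± SD, n = 4 each, limma adjusted p = 0.890).

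The DNAJ co-chaperones, which hand unfolded chains to BiP, did not pass either. Dnajb11 was at 31.8 ± 2.20 FPKM in wild type against 29.7 ± 1.58 FPKM in knockout hearts, Dnajb9 at 16.0 ± 2.18 and 14.6 ± 1.39 FPKM, and Dnajc3, which also inhibits PERK, at 12.5 ± 0.792 and 12.8 ± 1.49 FPKM (mean ± SD, n = 4). Their limma adjusted p ran from 0.444 to 0.885. For these 3 genes the 95% interval of the change stayed within 1.5-fold, with its outermost bounds at -0.36 and 0.24 on the log2 scale.

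Of the lectin chaperones, which bind glycoproteins through their sugar chains, soluble calreticulin and membrane-bound calnexin diverged most in knockout replicate 4. Calr (chromosome 8, 84841850 to 84846934) was at 154, 165, 168 and 163 FPKM in wild type and at 162, 141, 152 and 81.9 FPKM in knockout hearts. Knockout replicates 2 to 4 lay below every wild type library, replicate 4 by far the most, and the log2 change over all libraries was -0.32 ± 0.19 (95% interval -0.74 to 0.10, limma adjusted p = 0.285). Without knockout replicate 4 the change was -0.10. Canx, for calnexin, was at 62.5 to 75.4 FPKM in wild type against 63.8 to 86.0 FPKM in knockout hearts (limma adjusted p = 0.755). Knockout replicate 4 lay inside the wild type range of Canx and replicate 3 above it.

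Among the disulfide isomerases in the member list, P4hb had the highest level and the smallest p. P4hb encodes the isomerase that is also the beta subunit of collagen prolyl 4-hydroxylase (chromosome 11, 120560298 to 120573253). It was at 111, 110.05, 109 and 115 FPKM in wild type and at 136, 161, 134 and 110.6 FPKM in knockout hearts. Knockout replicates 1 to 3 lay above every wild type library and replicate 4 among them, which gave a log2 change of 0.27 ± 0.10 (95% interval 0.04 to 0.50, limma adjusted p = 0.119). Without knockout replicate 4, the knockout library within the wild type range, the change was 0.36 and passed the test (limma adjusted p = 0.0198). In that setting 11.9% of all tested genes were called. P4hb was called in 3 of 21 alternatives. Over all 21, which include a test for a minimum change of 1.5-fold, the adjusted p ran from 0.0148 to 1. Pdia3, the partner of the lectins, was at 73.2 to 82.2 FPKM in wild type and at 82.3, 78.9, 83.7 and 54.4 FPKM in knockout hearts (limma adjusted p = 0.764). Pdia6 was at 51.3 to 59.3 FPKM in wild type and at 54.3, 49.6, 55.5 and 29.6 FPKM in knockout hearts (limma adjusted p = 0.354). Pdia4 was at 13.5, 14.2, 16.4 and 16.8 FPKM in wild type against 17.2, 16.7, 18.3 and 7.74 FPKM in knockout hearts (limma adjusted p = 0.854). In these 3 genes knockout replicate 4 was again the lowest library. The oxidase gene Ero1lb, which recharges the isomerases, was at 0.859 to 0.921 FPKM in wild type against 0.528 to 0.782 FPKM in knockout hearts and was too low to be tested.

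The small lumenal UPR products showed the same low library. Manf, a secreted factor retained by BiP, was at 36.4, 50.1, 44.2 and 52.2 FPKM in wild type and at 42.2, 39.9, 43.8 and 23.9 FPKM in knockout hearts (log2 change -0.30 ± 0.19, limma adjusted p = 0.316). Creld2, an isomerase-like UPR target, was at 8.58 to 11.9 FPKM in wild type and at 11.5, 9.50, 9.41 and 6.02 FPKM in knockout hearts (limma adjusted p = 0.433). Sdf2l1, a partner of DNAJB11, was at 2.08 to 3.72 FPKM in wild type and at 2.71, 2.44, 3.16 and 1.25 FPKM in knockout hearts (limma adjusted p = 0.576). In all 3 the other knockout values fell inside the wild type range.

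Knockout replicate 4 held the lowest of the 8 values in 10 of the 15 tested ER folding genes (66.7%), and in 23.8% of all tested genes. The 10 were Hsp90b1, Calr, Pdia3, Pdia4, Pdia6, Dnajb11, Hyou1, Sdf2l1, Manf and Creld2. Against the median of the other 3 knockout libraries its level was 0.450-fold for Pdia4, 0.459-fold for Sdf2l1, 0.538-fold for Calr and 0.545-fold for Pdia6, and 0.937-fold for Dnajb11 at the other end. The highest value was in knockout replicate 3 for 7 of the 15 genes (46.7%, against 8.54% of all tested genes) and in wild type replicate 4 for 5 (33.3%, against 14.9%). Airway and lung markers summed to 1300 FPKM in wild type replicate 4, and their part in its high ER values was not tested. Of the tested genes whose promoters hold the ER stress element, Calr, Hsp90b1, Pdia6 and Creld2 were lowest in knockout replicate 4 and Hspa5, Canx, Dnajc3 and Syvn1 were not. In this library fibroblast markers, which include secretory matrix genes, summed to 859.7 FPKM, against 1265 to 1416 FPKM in the other knockout and 1417 to 1694 FPKM in the wild type hearts. Of 10 fibroblast markers, 4 were lowered over the groups (6.01% of all tested genes) and 0 raised. Erythroid markers were lowest there too (366 FPKM, against 1147 FPKM or more elsewhere). Endothelial markers summed to 499.1 FPKM there and to 498.9 to 592 FPKM in the other knockout hearts. The part of these markers in the low ER values was not tested, and the library number of this sample cannot be told apart from the sample. Without it the median log2 change of the ER genes was 0.00 in place of -0.07.

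**Figure D2:**
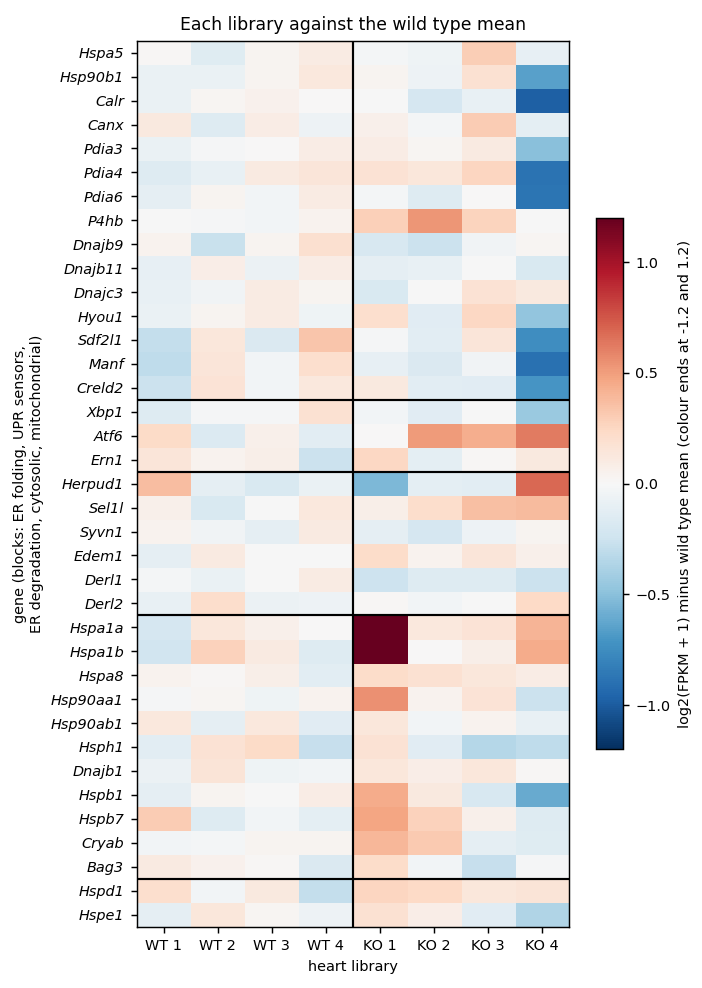
Difference of each library from the wild type mean, in log2(FPKM + 1), for the 37 tested genes in rows and the 8 libraries in columns; red is higher, blue is lower, and colour stops at -1.2 and 1.2. Blue cells gather in knockout replicate 4 among ER folding genes (10 of 15 lowest there) and red cells in knockout replicate 1 among cytosolic genes (9 of 11 highest there). Of those 9, Hspa1a and Hspa1b were tested only because of their values in knockout replicate 1.

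The UPR sensors and their target factor gave differences of either sign. Atf6, the membrane-bound factor that is cut and moves to the nucleus under ER stress (chromosome 1, 170704674 to 170867771), was at 15.4, 11.5, 13.7 and 11.8 FPKM in wild type and at 13.1, 19.0, 18.0 and 20.6 FPKM in knockout hearts. Knockout replicate 1 lay within the wild type range and the other 3 above it (log2 change 0.39 ± 0.14, 95% interval 0.08 to 0.71, limma adjusted p = 0.0985). Without knockout replicate 1, the knockout library within the wild type range, the change was 0.52 and passed the test (limma adjusted p = 0.0165). In that setting 16.0% of all tested genes were called. Atf6 was called in 1 of 21 alternatives. Over the 21, which include a test for a minimum change of 1.5-fold, the adjusted p ran from 0.0165 to 1. Xbp1, whose mRNA is spliced by IRE1, was at 28.5, 31.3, 31.5 and 36.1 FPKM in wild type and at 31.0, 28.8, 31.5 and 23.0 FPKM in knockout hearts (limma adjusted p = 0.388), and gene-level values do not show splicing. Ern1, which encodes IRE1 alpha, was at 1.67 ± 0.311 FPKM in wild type against 1.79 ± 0.302 FPKM in knockout hearts (mean ± SD, n = 4, limma adjusted p = 0.746).

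Genes of ER-associated degradation, the route by which misfolded chains leave the ER, gave small differences in both directions, with 0 of 6 tested past the threshold. Derl1, a derlin of the exit channel (chromosome 15, 57869502 to 57892448), was at 20.4, 19.6, 20.7 and 22.3 FPKM in wild type and at 17.3, 18.6, 18.5 and 17.2 FPKM in knockout hearts. All knockout values lay below all wild type values, with a log2 change of -0.20 ± 0.07 (95% interval -0.36 to -0.04, limma adjusted p = 0.0929). Derl2 was at 10.7 ± 1.22 FPKM in wild type against 11.1 ± 1.11 FPKM in knockout hearts (mean ± SD, n = 4, limma adjusted p = 0.746), and Derl3 was at no more than 0.122 FPKM in any library. Sel1l, the adaptor of the ubiquitin ligase, was at 11.2, 9.37, 10.7 and 11.9 FPKM in wild type and at 11.3, 12.6, 14.1 and 14.3 FPKM in knockout hearts (log2 change 0.26 ± 0.10, limma adjusted p = 0.115). The ligase itself, Syvn1, was at 6.69 ± 0.501 FPKM in wild type against 6.24 ± 0.483 FPKM in knockout hearts (limma adjusted p = 0.524). Edem1, which extracts glycoproteins from the folding cycle, was at 3.85 ± 0.292 and 4.25 ± 0.295 FPKM (limma adjusted p = 0.373).

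Herpud1, a membrane protein that assembles the degradation complex, varied more within the groups than the other ER degradation genes tested. It was at 77.9, 55.7, 52.8 and 56.8 FPKM in wild type and at 41.0, 55.2, 55.0 and 97.3 FPKM in knockout hearts (log2 change -0.02 ± 0.24, 95% interval -0.55 to 0.50, limma adjusted p = 0.956). Its highest value of all was in knockout replicate 4, where most ER folding genes were lowest, and its lowest in knockout replicate 1. Atf6, Sel1l and Derl2 were also at their highest in knockout replicate 4. Together these are 4 of 24 ER genes (16.7%), below the 25.05% of all tested genes that were highest there.

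The 4 most abundant cytosolic genes, Hspa8, Cryab, Hspb7 and Hsp90ab1, made up 88.2% of the FPKM summed over the 11 cytosolic genes. Hspa8, the constitutive HSP70 (chromosome 9, 40800984 to 40810087), was at 625, 615, 641 and 556 FPKM in wild type and at 711, 693, 669 and 648 FPKM in knockout hearts. All knockout values lay above all wild type values, by a log2 change of 0.16 ± 0.07 (95% interval 0.00 to 0.32, limma adjusted p = 0.158). Hsp90ab1, the constitutive HSP90, was at 420.3, 357, 420.3 and 350.4 FPKM in wild type and at 423, 376, 398 and 363 FPKM in knockout hearts (limma adjusted p = 0.936). The libraries were quantile normalised, so exact ties between libraries can come from the normalisation. Only the 39 highest ranks hold 1 value in all 8 libraries. Hsp90aa1, the inducible HSP90, was at 55.7 to 58.2 FPKM in wild type and at 82.9, 58.2, 63.2 and 47.0 FPKM in knockout hearts (limma adjusted p = 0.599).

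The inducible HSP70 genes were low and rested on a single library. Hspa1a and Hspa1b are near-identical neighbours on chromosome 17 (34969190 to 34972156 and 34956436 to 34959238), so the authors' quantification could have divided their reads in any proportion. Hspa1a was at 0.513, 0.915, 0.819 and 0.750 FPKM in wild type and at 3.97, 0.908, 0.953 and 1.32 FPKM in knockout hearts (log2 change 0.55 ± 0.27, limma adjusted p = 0.208). Hspa1b was at 0.584, 1.24, 0.990 and 0.668 FPKM in wild type and at 4.06, 0.855, 0.940 and 1.52 FPKM in knockout hearts (log2 change 0.49 ± 0.29, limma adjusted p = 0.291). The sum of both was 8.02 FPKM in knockout replicate 1 and 1.10 to 2.83 FPKM in the other 7 libraries. Both genes entered the test through that library, since without it their mean was below 1 FPKM. With the level of Ddx3y as a covariate, 1 of 19 alternatives, both passed the test (limma adjusted p = 0.0425 for Hspa1a and 0.0394 for Hspa1b). Among knockout libraries only replicate 1 had Ddx3y near 0, so this covariate cannot be told apart from that library. Over the alternatives in which they could be tested, which include a test for a minimum change of 1.5-fold, the highest adjusted p was 1.

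The co-chaperones of the cytosolic HSP70 in the member list did not pass the test. Hsph1, a nucleotide exchange factor, was at 5.63 ± 1.09 FPKM in wild type against 4.97 ± 1.02 FPKM in knockout hearts, and Dnajb1, which delivers substrates, at 9.24 ± 0.773 and 9.90 ± 0.421 FPKM (mean ± SD, n = 4, limma adjusted p = 0.527 and 0.465). Bag3, which links HSP70 to small heat shock proteins and to autophagy at the Z-disc, was at 53.6, 51.5, 50.3 and 44.1 FPKM in wild type and at 58.1, 48.5, 41.0 and 49.2 FPKM in knockout hearts (limma adjusted p = 0.899).

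The small heat shock proteins of heart muscle spread more widely among knockout hearts than among wild type hearts. Cryab, for alpha-B-crystallin (chromosome 9, 50751325 to 50756636), was at 475, 478, 497 and 497 FPKM in wild type and at 641, 605, 452 and 441 FPKM in knockout hearts. Knockout replicates 1 and 2 lay above and replicates 3 and 4 below every wild type library (log2 change 0.11 ± 0.12, 95% interval -0.16 to 0.39, limma adjusted p = 0.572). Hspb1, for HSP25, was at 131, 143, 139.9 and 149 FPKM in wild type and at 192, 152, 123 and 92.3 FPKM in knockout hearts (limma adjusted p = 0.867), with the same order of knockout libraries. Hspb7, a filament-binding protein of cardiomyocytes, was at 514, 373, 405 and 382 FPKM in wild type and at 577, 502, 433 and 373 FPKM in knockout hearts (limma adjusted p = 0.486), again in that order. The difference in spread between the groups was not tested.

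Knockout replicate 1 held the highest of the 8 values in 9 of the 11 cytosolic genes (81.8%) and in both mitochondrial genes, and in 13.5% of all tested genes. The exceptions were Hsph1 and Dnajb1. Of the 9, Hspa1a and Hspa1b were tested only because of their values in this library, so their place in the count follows from the filter. Against the median of the other 3 knockout libraries, the 11 genes ranged from 1.04-fold for Dnajb1, 1.06-fold for Hspa8 and 1.13-fold for Hsp90ab1 to 1.57-fold for Hspb1 and 4.32-fold for Hspa1b. Among 10 immediate early genes, which respond within minutes to handling and stress, Atf3 was at 21.9 FPKM in this library and at 2.73 to 5.96 FPKM in the other 7. Fos was at 11.7 FPKM there and at 1.88 to 5.04 FPKM elsewhere, and the whole list summed to 128 FPKM there and to 79.8 to 106 FPKM elsewhere. Knockout replicate 1 was also the only knockout library with Ddx3y near 0. The part of either in the heat shock values was not tested. Without this library Hspa1a and Hspa1b were not tested, and the median log2 change of the remaining cytosolic genes was -0.02 in place of 0.11. With all libraries kept, the median without Hspa1a and Hspa1b was 0.09.

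**Figure D3:**
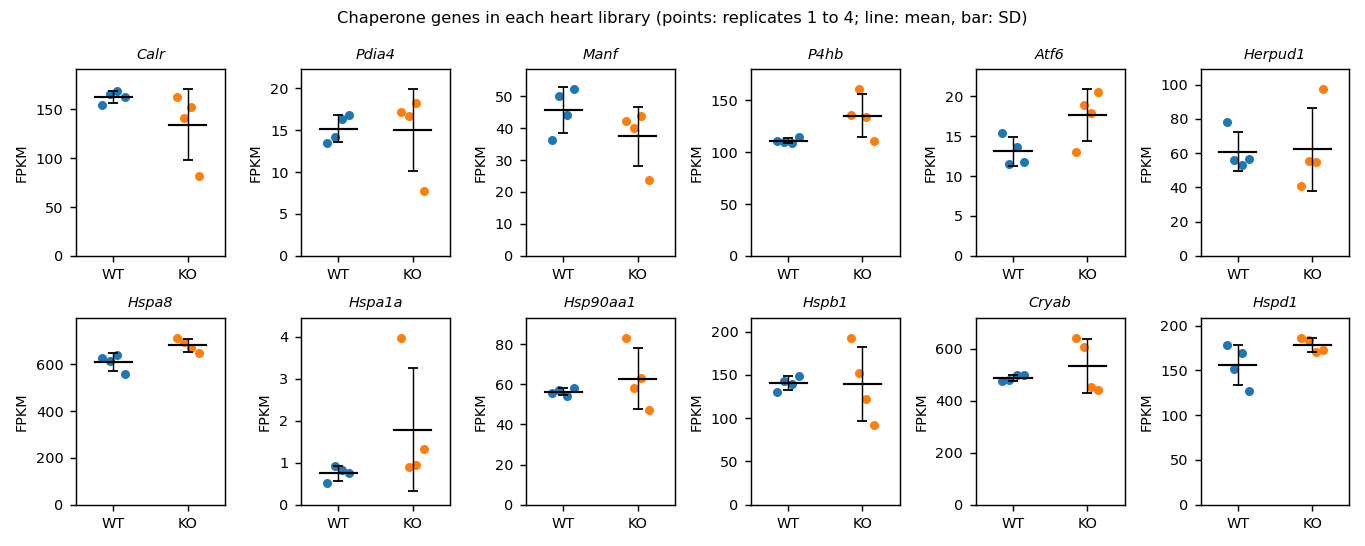
FPKM of 12 chaperone genes in each library, with points for replicates 1 to 4 from left to right, wild type in blue and knockout in orange, a black line for the mean and a bar for the SD; each axis starts at 0. Knockout replicate 4 is the low point of Calr, Pdia4 and Manf and the high point of Herpud1 (97.3 FPKM), and knockout replicate 1 is the high point of Hspa1a (3.97 FPKM).

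The mitochondrial chaperonin genes, head-to-head neighbours, gave differences of opposite sign. Hspd1 encodes the HSP60 ring (chromosome 1, 55077835 to 55088243) and was at 178, 152, 169 and 128 FPKM in wild type and at 186, 183, 171 and 173 FPKM in knockout hearts (log2 change 0.20 ± 0.10, 95% interval -0.03 to 0.43, limma adjusted p = 0.233). Its lowest value was in wild type replicate 4. Hspe1 encodes its lid, HSP10, and was at 96.5, 115, 106 and 99.9 FPKM in wild type and at 118, 110.05, 94.7 and 80.6 FPKM in knockout hearts (limma adjusted p = 0.771). In the knockout hearts Hspe1 had the same order of libraries as Hspb1 and Cryab, highest in replicate 1 and lowest in replicate 4, whereas Hspd1 stayed between 171 and 186 FPKM.

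Set against each other, ER and cytosolic genes gave a contrast smaller than its spread between libraries. The mean log2(FPKM + 1) of the 24 ER genes minus that of the 11 cytosolic genes was -1.03, -1.08, -1.06 and -0.87 in wild type replicates 1 to 4 and -1.53, -1.12, -0.90 and -1.18 in knockout replicates 1 to 4. The group means were -1.01 ± 0.09 and -1.18 ± 0.26 (SD, n = 4 each), and the ranges overlapped. Without Hspa1a and Hspa1b, an alternative chosen after seeing the data, they were -2.07 ± 0.09 and -2.16 ± 0.18, so that the difference between the groups was -0.09 in place of -0.18. The mean of the 9 remaining cytosolic genes differed by 0.05, and that of all 11 by 0.13. As medians of the gene-wise log2 changes, the ER value minus the cytosolic value was -0.19, and it was -0.08 without knockout replicate 1 and -0.19 without knockout replicate 4. Summed FPKM of the 26 ER genes was 1084 ± 35.7 in wild type and 1058 ± 122 in knockout hearts, and that of the cytosolic genes 2165 ± 110.2 and 2346 ± 298. No p is given for these summaries, since the members were chosen with results of these data known.

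**Figure D4:**
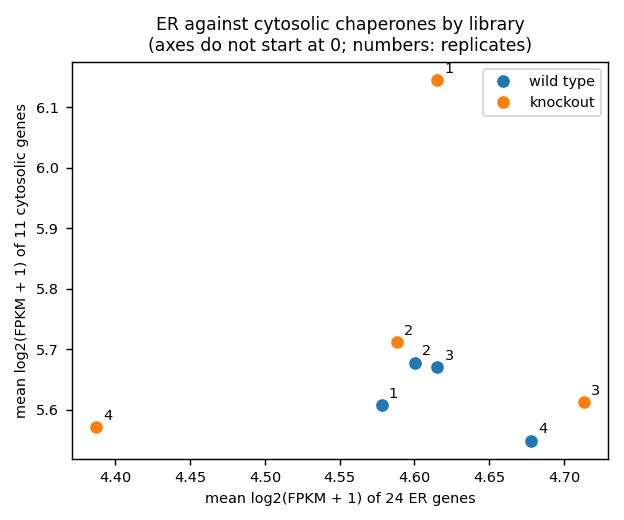
Mean log2(FPKM + 1) of the 24 tested ER genes (horizontal) against that of the 11 cytosolic genes (vertical), with 1 point per heart library numbered by replicate, wild type in blue and knockout in orange. Knockout replicate 1 stands apart by its cytosolic mean of 6.15 and knockout replicate 4 by its ER mean of 4.39. The cytosolic mean includes Hspa1a and Hspa1b, which were tested only because of their values in knockout replicate 1.

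Some related genes outside the member list were called. Of 32 tested further ER folding genes 4 were raised and 1 lowered, where 6.15% and 6.01% of all tested genes were, which puts the count near the background of 12.2%. Their median log2 change was -0.04. Ero1l, the oxidase paralog of Ero1lb (chromosome 14, 45283087 to 45318771), was at 6.16, 6.14, 6.21 and 5.84 FPKM in wild type and at 18.9, 15.05, 11.9 and 12.3 FPKM in knockout hearts. The groups did not overlap, and the log2 change was 1.11 ± 0.13 (limma adjusted p = 0.00148). Pdia5, a disulfide isomerase, rose from 4.70 ± 0.663 to 8.59 ± 1.71 FPKM (log2 change 0.74 ± 0.13, limma adjusted p = 0.00925). Qsox1, a sulfhydryl oxidase, rose 1.54-fold (limma adjusted p = 0.0164, not called without wild type replicate 2). Fkbp14, a prolyl isomerase for collagen, rose 1.64-fold, and Erp44, which retrieves ERO1 oxidases, fell 1.25-fold, both named after their values were seen. Fkbp14 was not called when wild type replicate 1, 2 or 4, or knockout replicate 2, was left out, and Erp44 was called in 1 of 8 omissions of a library, that of knockout replicate 2. Of 26 further genes of ER degradation and the UPR and of 25 genes of ER translocation 0 were called. Those of smallest p were Creb3l1 (log2 change -0.52, limma adjusted p = 0.0502) and Rnf5 (adjusted p = 0.0562), and Sec11a (adjusted p = 0.0556) and Srprb (adjusted p = 0.0646). At an unadjusted p under 0.05 these lists held 8 genes (30.8%) and 5 genes (20.0%), which is near or below the 29.6% of all tested genes.

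Of 6 genes of the PERK branch 1 was raised and 0 lowered, where 6.15% and 6.01% of all tested genes were, and the other 5 did not pass. The raised gene, Trib3, a pseudokinase induced by ATF4 and CHOP, rose from 1.67 ± 0.293 to 4.04 ± 1.19 FPKM (log2 change 0.89 ± 0.18, limma adjusted p = 0.0129). Of 37 tested further heat shock genes 4 were raised and 4 lowered (6.15% and 6.01% of all tested genes), with a median log2 change of -0.09. Hspb8, the small heat shock protein that works with BAG3, was at 138, 139.7, 143 and 127 FPKM in wild type and at 247, 223, 172 and 278 FPKM in knockout hearts (log2 change 0.72 ± 0.13, limma adjusted p = 0.00955). All its knockout values lay above all wild type values. Hspa4l, an HSP110, rose from 6.68 ± 1.01 to 9.67 ± 0.173 FPKM (limma adjusted p = 0.0145, not called without wild type replicate 2 or with a replicate block). Hspa12b, an HSP70 relative of endothelial cells (chromosome 2, 131127280 to 131146321), averaged 17.2 ± 0.533 FPKM in wild type and fell to 11.1 ± 1.74 FPKM in knockout hearts (log2 change -0.59 ± 0.10, limma adjusted p = 0.00721). Of 10 endothelial markers 3 fell (6.01% of all tested genes did) and 0 passed the test in the other direction. The 3 were Tie1, Tek and Ushbp1, named after their values were seen. Pecam1 had all knockout values above all wild type values without passing (log2 change 0.24, limma adjusted p = 0.0665). The summed marker level was 561 to 673 FPKM in wild type against 498.9 to 592 FPKM in knockout hearts. The part of endothelial RNA in the fall of Hspa12b was not tested.

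Other called heat shock genes, named after their values were seen, were partners of HSP90 and an HSP40. Fkbp5, a glucocorticoid-induced immunophilin, rose 2.34-fold and Dnajb4, an HSP40, 1.42-fold, and neither was called without wild type replicate 2. The kinase loader Cdc37, the ATPase activator Ahsa1 and the myosin chaperone Unc45b fell 1.21-fold, 1.19-fold and 1.21-fold (limma adjusted p = 0.0376, 0.0471 and 0.0359). At a minimum change of 1.5-fold every called gene named here from these lists lost its call, with Ero1l at a limma adjusted p of 0.215. The calls of the 3 lowered genes held in 2 of 8 omissions of a library for Cdc37 and Unc45b and in 1 of 8 for Ahsa1. Of 8 subunits of the cytosolic chaperonin TRiC and of 11 further mitochondrial proteostasis genes 0 were called. The smallest p were those of Tcp1 (limma adjusted p = 0.169) and Cct4 (adjusted p = 0.318) and, in mitochondria, of the HSP70 gene Hspa9 (201 ± 22.8 and 258 ± 33.3 FPKM, adjusted p = 0.0638) and of Grpel1 (adjusted p = 0.0754). At an unadjusted p under 0.05 they held 0 and 5 genes, the latter 45.5% of the list against 29.6% of all tested genes.

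**Figure D5:**
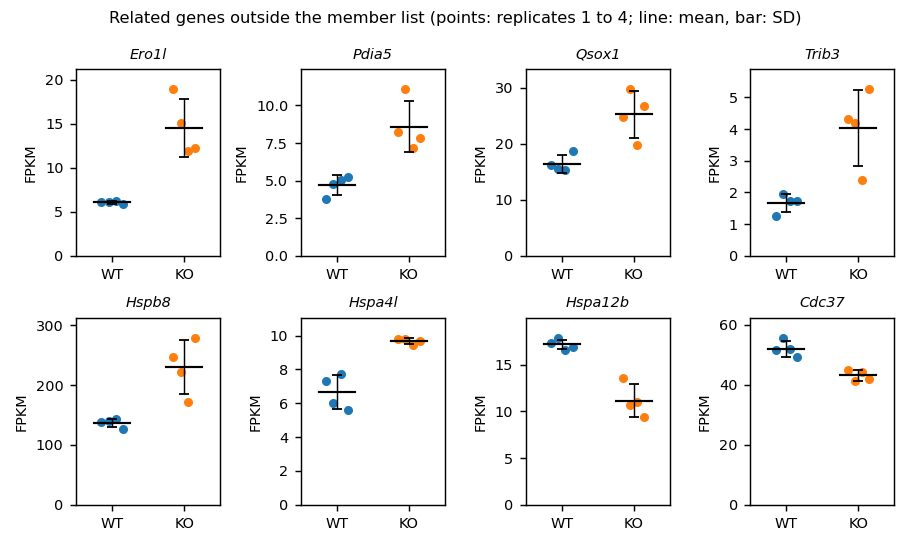
FPKM of 8 related genes outside the member list in each library, with points for replicates 1 to 4 from left to right, wild type in blue and knockout in orange, a black line for the mean and a bar for the SD; each axis starts at 0. Ero1l, Pdia5, Qsox1, Trib3, Hspb8 and Hspa4l are higher in every knockout library, and Hspa12b and Cdc37 lower.

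Other cell types that the tissue could hold were checked by summed markers. Leukocyte markers summed to 77.4 to 88.8 FPKM in wild type against 75.8 to 93.3 FPKM in knockout hearts, and smooth muscle and pericyte markers to 1012 to 1479 and 1140 to 1374 FPKM. Atrial markers summed to 2483 to 3870 FPKM in wild type against 2863 to 11825 FPKM in knockout hearts, highest in knockout replicate 2. Plasma cell markers, of a cell type rich in ER chaperones, summed to 6.81 to 9.49 FPKM and 8.89 to 10.0 FPKM, and its marker Tnfrsf17 was at no more than 0.180 FPKM. Adipocyte markers summed to at most 24.2 FPKM in wild type against 47.9 FPKM in knockout hearts.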

How the data were processed

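Whole-heart RNA was sequenced as 8 Illumina TruSeq libraries, per the labels' protocols, and processed with TopHat2, mm10 and Cufflinks, per the submitters' processing notes. The authors deposited 1 table of FPKM made with Cufflinks, per the submitters' processing notes; its unit is unnamed and was inferred from that tool and from the fractional values. The authors' values are quantile normalised, since the 39 highest ranks hold 1 value in all 8 columns, so depth and counting error cannot be recovered. No source used here gives the annotation or strandedness, so overlapping genes and close paralogs are uncertain.

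Labels gave the groups. Genes averaging 1 FPKM or more were transformed to log2(FPKM + 1) and compared with limma 3.58.1 (R 4.3.3; lmFit and eBayes with trend and robust options, no covariate). Benjamini-Hochberg adjustment ran over all 11390 genes kept, and calls are at adjusted p under 0.05. The fit was tested on simulated data. Folds are ratios of mean FPKM. All members may be named. Of other pathway lists the 3 called genes of smallest p may be, or the 2 smallest p where 0 were called. Of each marker list at most the 2 genes of highest mean level may be named. Other genes of these lists, among them the markers Tie1, Tek, Ushbp1, Atf3, Fos and Tnfrsf17, were named after their values were seen. Members, lists and alternatives were chosen with earlier results of these data known. Gene coordinates are from GENCODE M21 and promoters from RefSeq. Protein sequences were not used here. Figures were drawn with matplotlib 3.10.9 under Python 3.11.15. The alternatives changed the pseudocount, filter, centring, variance model, weights, threshold, block or covariate, or left out libraries.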

Additional observations from a re-analysis of the deposited data

Results flagged for a closer look

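In 8 of 132 groups of 4 libraries (6.06%) a single library stood apart, its gap to the nearest other library as a share of the group's range, passing Dixon's 95% critical value. Chance gives about 1 in 20 such groups. Among knockout hearts, replicate 4 was the low library for Pdia3 (54.4 FPKM, nearest 78.9) and Pdia4 (7.74 FPKM, nearest 16.7), and replicate 1 the high library for Hspa1a (3.97 FPKM, nearest 1.32). Among wild type hearts, replicate 1 was high for Herpud1 (77.9 FPKM, nearest 56.8) and low for Creb3l1 (4.47 FPKM, nearest 5.17). Wild type replicate 2 was high for Derl2 (12.5 FPKM, nearest 10.2), Dnajb1 (10.4 FPKM, nearest 8.98) and Erp44 (19.9 FPKM, nearest 17.7).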

How the results depend on the processing

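The count of all called genes, 1385 in the reported fit, was 37 at a minimum change of 1.5-fold and 613 with a replicate block, and ran with 1 library left out from 574 (wild type replicate 2) to 1819 (knockout replicate 1). It was also below the reported count by more than 1.5 times without wild type replicate 3 (838) or 4 (742) and without knockout replicate 2 (759) or 3 (896). The replicate numbers do not pair the samples: deviations of same-numbered libraries correlated at -0.23 to 0.10, over 0.1 in 1 of 4 pairs, and 1 of 4 wild type libraries correlated best with its own number. With the replicate block 0 members were called, and 5.38% of all tested genes. The count of ER members called was 0 in the reported fit, 1 (P4hb) with array weights and without both replicates 4, and 0 to 1 with 1 library left out (P4hb without knockout replicate 4, Atf6 without knockout replicate 1). Of all tested genes, 17.8% were called with array weights and 8.76% without both replicates 4. The share was 11.9% without knockout replicate 4 and 16.0% without knockout replicate 1. The count of cytosolic members was 0, and 2 (Hspa1a and Hspa1b) with the Ddx3y covariate, where 9.11% of all tested genes were called. Both entered the test only through knockout replicate 1, the only knockout library with Ddx3y near 0. The contrast of ER with cytosolic medians was -0.165 without Hspa1a and Hspa1b (chosen after seeing the data) and below 0 in the other 21 alternatives, from -0.24 without knockout replicate 3 to -0.08 without knockout replicate 1.

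Several uncalled changes near 0 took the other sign, uncalled there too, and the cause was not tested. Without both replicates 4 the log2 changes were 0.092 (Hsp90b1), 0.10 (Pdia3), 0.24 (Pdia4), 0.088 (Hyou1), 0.11 (Sdf2l1), 0.00093 (Xbp1), -0.037 (Ern1), -0.028 (Derl2), 0.15 (Hspb1), 0.021 (Hspe1) and -0.0041 (Egln1). With array weights they were 0.032 (Pdia3), 0.095 (Pdia4), 0.016 (Sdf2l1), -0.036 (Ern1), -0.029 (Hsp90ab1) and 0.030 (Hspb1). With the Ddx3y covariate they were -0.0068 (Dnajc3), 0.020 (Hyou1), 0.036 (Hspb1), 0.025 (Bag3) and 0.0080 (Hspe1). With 1 library left out the changes ran from -0.060 to 0.073 for Hspa5, -0.23 to 0.049 for Hsp90b1, -0.026 to 0.12 for Canx, -0.13 to 0.076 for Pdia3, -0.19 to 0.19 for Pdia4, -0.024 to 0.097 for Dnajc3, -0.14 to 0.10 for Hyou1, -0.30 to 0.0010 for Sdf2l1, -0.020 to 0.13 for Ern1, -0.26 to 0.15 for Herpud1, -0.0081 to 0.13 for Derl2, -0.016 to 0.25 for Hsp90aa1, -0.032 to 0.055 for Hsp90ab1, -0.23 to 0.12 for Hspb1, -0.11 to 0.056 for Bag3 and -0.14 to 0.041 for Hspe1. Depth is unknown, so its limit on low genes such as Hspa1a cannot be stated.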
